A study of Mus musculus with 26 samples.

Results

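Cohesin sites of C2C12 myoblasts were compared with those of C2C12 myotubes transfected with siDRR, an siRNA against the DRR enhancer RNA. C2C12 is a mouse muscle progenitor line whose proliferating myoblasts exit the cell cycle and fuse into myotubes in low serum. Members were chosen by rule: the 2 SMC3 ChIP-seq peak lists of myoblasts and the 2 of siDRR myotubes, 4 of 26 samples in the series, 16 of which had a peak list. On chromosomes 1 to 19 and X, peaks of the 4 lists were merged where they overlapped by at least 1 bp, which gave 40855 regions, and a region counted as called in every list with a peak in it. Lost regions are those of both myoblast lists and neither siDRR list, and gained regions those of both siDRR lists and neither myoblast list. Both words stand for peak calls, and occupancy was not tested.

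The myoblast samples were kept in growth medium with 20% serum and their labels name no transfection. The siDRR samples were cells at the myotube stage, in medium with 2% horse serum, so the groups differ both in stage and in siRNA. The 2 SMC3 lists of myotubes whose labels name no transfection were read beside them to place the siDRR map. All 6 ChIP samples used the same SMC3 antibody lot, and no label ties a replicate to a culture of its own, so p-values measure only the spread between libraries, which may be technical. Peak lists hold no expression: knockdown of DRR, and the myoblast or myotube state, could not be checked against markers.

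SMC3 is a core subunit of cohesin, a ring-shaped complex that holds sister chromatids together and extrudes loops of chromatin, often halted at sites bound by CTCF. Cohesin also gathers at active enhancers and promoters, where it helps to keep distant elements in contact. The DRR, or distal regulatory region, is an enhancer upstream of Myod1, the gene of a master transcription factor of muscle, and it is transcribed into an enhancer RNA. The series' title names that RNA as a mediator of cohesin recruitment. The comparison asks whether myotubes depleted of DRR keep a cohesin map like that of myoblasts or hold a reduced version of the myotube map.

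The myoblast lists held 30955 and 33154 peaks, and the siDRR lists 8384 and 23196. The means were 32054.5 ± 1555 and 15790 ± 10474 (SD, n = 2 each), a difference of -16264.5 peaks. An exact permutation test (two-sided) over libraries gave p = 0.333, which is as small as 2 against 2 can give. Both siDRR lists were shorter than both myoblast lists. Read depth is unknown, so a short list can come from a shallower library as well as from less SMC3 on chromatin. The median deposited score was 152 and 150 in the myoblast lists, 81.6 in siDRR replicate 1 and 142 in siDRR replicate 2. Replicate 1 of siDRR thus stood apart. Counts of the main sets that rest on it are given with and without it. So are median ranks of gained regions and of regions in all lists. In bulk chromatin, fewer cells with SMC3 at a site and less SMC3 per cell cannot be told apart.

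With full lists, most siDRR regions were also on the longer myoblast map. Of 8330 regions called in siDRR replicate 1, 98.3% were called in at least 1 myoblast list, and of 22791 in replicate 2, 90.1% were. Of the 7961 regions that both siDRR lists called, 7818 were called in both myoblast lists, 101 in 1 of them and 42 in neither. With lists of equal length (the best 8384 peaks of each), a single myoblast list held 65.8% or 65.9% of siDRR replicate 1 regions and 72.8% or 77.1% of those of replicate 2. The 2 myoblast lists held 77.3% and 77.5% of each other at that length. In the other direction the myoblast map was recovered in part: of 25231 regions in both myoblast lists, 7013 were called in neither siDRR list (27.8%), 10400 in 1 and 7818 in both. The 7013 lost regions were 17.2% of all 40855 regions, the 42 gained 0.103% and the 7818 called in all 4 lists 19.1%.

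**Figure D1:**
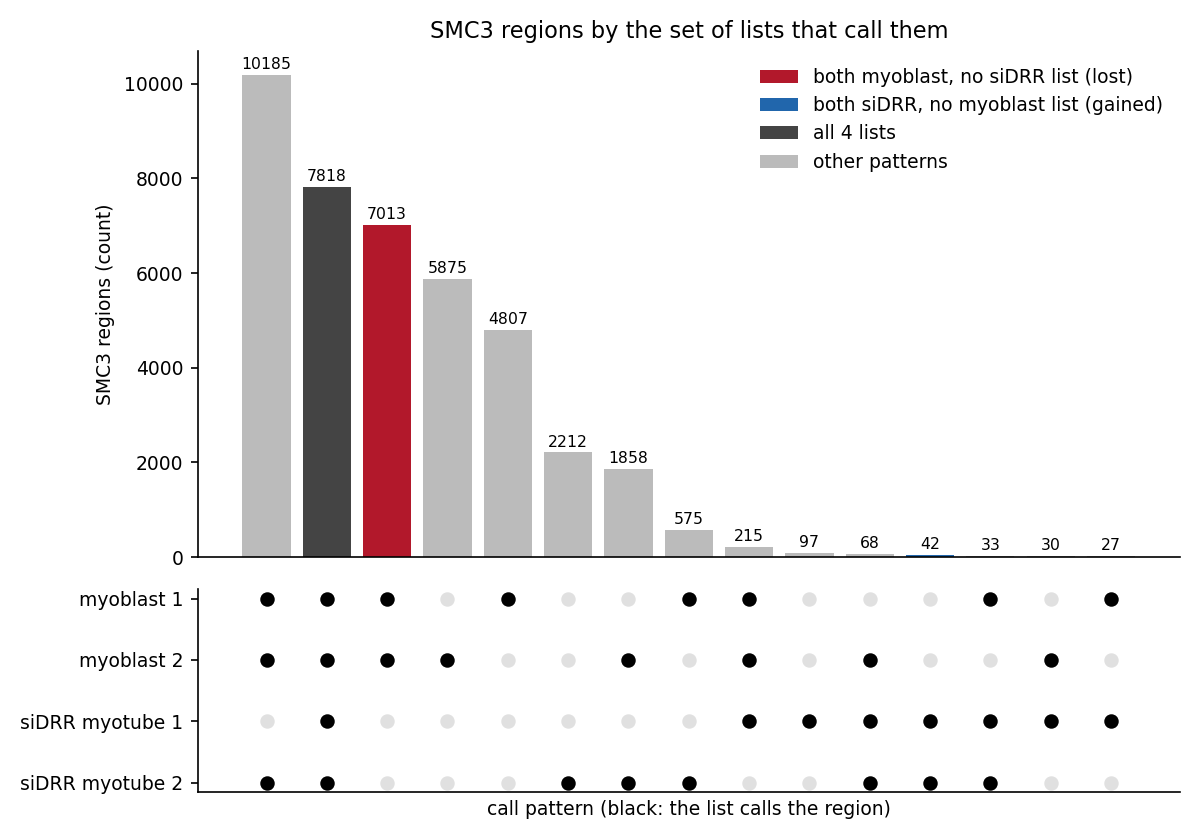
Bars give the number of SMC3 regions (y axis, count) for each of the 15 combinations of the 4 lists, marked below by black dots. The largest bar, 10185 regions, is called by both myoblast lists and siDRR replicate 2 but not siDRR replicate 1; 7013 regions are lost and 42 gained.

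Most of the regions between those classes were set by siDRR replicate 1. Of the 10400 regions in both myoblast lists and 1 siDRR list, 10185 were called in replicate 2 and 215 in replicate 1. Without siDRR replicate 1, 7228 regions were lost and 2254 gained; without siDRR replicate 2, 17205 were lost and 139 gained. Without myoblast replicate 1 or 2, the lost regions numbered 12922 and 11961, and the gained 75 and 110, since a single list then defined the myoblast side. Regions of all lists used, 7818 with all 4, numbered 18004 without siDRR replicate 1, at a median myoblast rank of 70.2 against 83.3 with it. Lost calls outnumbered gained calls in each of these settings, as they did with every list cut to its best 8384 peaks, where 603 regions were lost and 463 gained (56.6% lost). Equal lengths pull these counts toward balance by construction. Pairs of the same replicate number gave the same order with full lists: 97.1% of siDRR replicate 1 regions lay in myoblast replicate 1 and 26.2% of the reverse, and for replicate 2 the shares were 87.4% and 60.2%. Shared regions are always the larger share of the shorter list, so the order within a pair follows from list length.

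Whether a myoblast site was on the siDRR map followed its strength in myoblasts. Strength is given as a rank percentile, which orders the peaks of a list by deposited score up to 100 for the top one; a region takes its best peak, averaged over both myoblast lists. Of the myoblast regions ranked 90 to 100, siDRR replicate 2 called 99.9% and replicate 1 called 86.5%. At ranks of 50 to 60 the shares were 74.2% and 18.2%, and at 10 to 20 they were 22.0% and 1.79%. Neither siDRR list had a call at 0.0354% of the regions ranked 90 to 100, 24.2% of those at 50 to 60 and 77.4% of those at 10 to 20. The share thus climbed in every step of 10 percentiles in both siDRR lists.

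**Figure D2:**
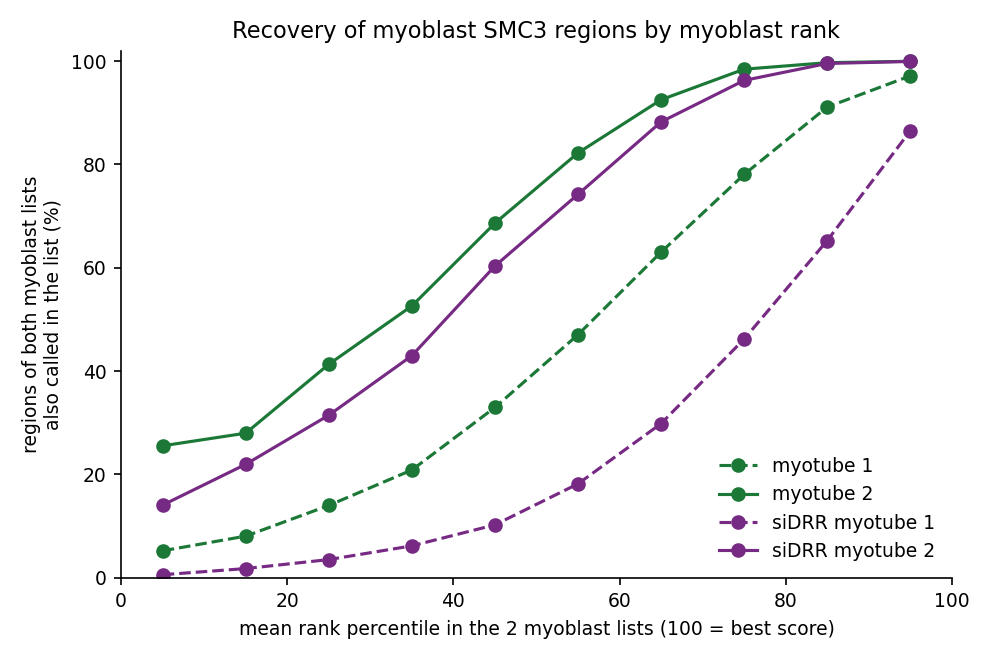
The x axis is the mean rank percentile of regions called in both myoblast lists, in steps of 10, and the y axis the percentage of them also called in each myotube or siDRR list. Every curve climbs with rank; siDRR replicate 2 runs just under myotube replicate 2, and siDRR replicate 1 is the lowest throughout.

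The same curve in myotubes without siDRR had the same shape. At ranks of 50 to 60 myotube replicates 1 and 2 called 47.0% and 82.2% of the myoblast regions. At ranks of 10 to 20 they called 8.07% and 28.0%. Over all ranks, myotube lists recovered 53.4% and 76.6% of the regions of both myoblast lists, and siDRR lists 31.9% and 71.4%. The 2 groups overlap: siDRR replicate 2 stood above myotube replicate 1. The order of these 4 shares is also the order of the 4 list lengths, from 8384 to 26765 peaks.

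Lost sites were mostly weak myoblast sites. Their median mean rank percentile was 31.5 (quartiles 20.8 and 44.0), against 83.3 for regions of all 4 lists. In the myoblast lists the median score of peaks at lost regions was 95.5 and 93.5, where the lists start at a score of 50, against 396 and 455 at regions of all 4 lists. A small group was strong: 14 lost regions had a mean rank above 80, and 437 lay between 60 and 80. By comparison 4553 regions of all 4 lists ranked above 80.

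The best-ranked lost region was chr8:130496380-130498417 (mm9, 2038 bp), at rank percentiles of 88.9 and 94.9 in myoblast replicates 1 and 2. No siDRR peak lay within 138 kb of it, and no myotube peak within 50.3 kb. ATAC-seq, which marks chromatin open to a transposase, had peaks in it in all 4 libraries of control and siDRR myotubes, at ranks of 44.6 and 83.6 in control and 77.1 and 77.2 with siDRR. Accessible chromatin was thus called at this site in myotubes while SMC3 peaks were called in myoblasts only.

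The second was chr13:21417605-21419778, at 85.1 and 94.4 in the myoblast lists. Myotube lists called it at 19.6 and 8.08, far down their ranking, and the nearest siDRR peak was 90.7 kb away. The third, chr6:118322777-118324100, stood at 95.1 and 82.9 in myoblasts and was called in myotube replicate 2 alone, at 47.2. A siDRR peak lay 4.96 kb from it, the closest for any of the 10 best-ranked lost regions. The next pair, chr15:56575795-56577746 and chr11:83740170-83741498, had myoblast ranks of 88.4 and 88.6, and of 93.0 and 81.4. Both were called in both myotube lists at ranks of 33.9 or lower.

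The other 5 of the 10 had no myotube call or a call in myotube replicate 2 alone. At chr3:131583713-131584699 (87.6 and 84.9 in myoblasts) and chr12:25865391-25867087 (80.7 and 82.1), no myotube list had a call. At chr10:40303178-40304485, chr11:97436353-97437765 and chr12:91404080-91405617, myotube replicate 2 alone called a peak, at 29.5, 18.4 and 20.4. The last of these was the site farthest from any siDRR peak, 573 kb, and its ATAC peaks ranked 85.0 and 96.9 in control and 96.2 and 94.1 with siDRR. In all, 3 of the 10 were called in both myotube lists and 7 in at least 1, while 4 carried an ATAC peak in both siDRR libraries. Over all 43783 regions of the 6 SMC3 lists merged together, 31.6% were called in both myotube lists and 37.2% in neither. Of all 40855 regions, 42.2% overlapped a region accessible in both siDRR ATAC lists. The counts for the 10 lie near these shares.

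The 3 widest lost regions spanned several kilobases. Of these, 0 stayed in the lost class with lists cut to equal length and 2 with the better-scoring 50% of each list. The widest was chr9:102631159-102638154 (6996 bp), at 57.0 and 85.6 in the myoblast lists with no call in either myotube list. Next were chr11:70001907-70008389 (6483 bp), at 21.7 and 77.6, and chr2:152560256-152566341 (6086 bp), at 74.4 and 68.6. The chromosome 11 region had no myotube call, and the chromosome 2 region was called in myotube replicate 2 alone, at 15.5. All 3 held ATAC peaks in both control and both siDRR libraries. Among all 40855 regions, of any width, 37.6% overlapped a region accessible in both control ATAC lists and 42.2% one accessible in both siDRR lists. A siDRR SMC3 peak lay 1.72, 6.19 and 0.427 kb from the 3 regions. As a set, lost regions had a median width of 1111 bp against 1363 bp in all 4 lists, though merging more lists widens a region. Single peaks give the fairer measure: at ranks of 40 to 60, myoblast replicate 1 peaks had median widths of 948 bp at lost and 1062 bp at all-4 regions, and in replicate 2 the widths were 1136 and 1131 bp. The narrower peaks at lost sites were thus seen in 1 of the 2 myoblast lists.

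The 42 gained regions, like the lost, were mostly weak. Their median mean rank percentile in the siDRR lists was 33.4, against 63.6 for regions of all 4 lists. Without siDRR replicate 1, the median siDRR rank was 17.53 for gained regions and 59.96 for regions of all lists used. Without siDRR replicate 2, these medians were 19.16 and 51.604. The best-ranked of the 42 was chr5:136756935-136757981, at 81.6 and 60.7 in siDRR replicates 1 and 2. It was also called in both myotube lists, at 82.9 and 47.9, and the nearest myoblast peak was 21.3 kb away. Next came chr1:57480191-57481216, at 52.8 and 57.3 with siDRR and 93.1 and 52.4 in myotubes, and chr12:81069606-81071863, at 45.2 and 63.1 with siDRR and 26.5 and 42.0 in myotubes. With the 6 SMC3 lists merged, 50% of 40 gained regions were called in both myotube lists. So were 90.5% of the 7814 regions in both myoblast and both siDRR lists, and 31.6% of all 43783 regions. Of the 10 best-ranked gained regions, 9 were called in both myotube lists, near the share of those 7814, and 10 in at least 1. Their class depended on list length: 1 of the 10 was still gained with lists of equal length and 3 with the better-scoring 50% of each list.

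Several of these gained sites lay in strongly accessible chromatin. At chr17:10216959-10219275, with siDRR ranks of 55.7 and 50.8, ATAC peaks stood at 98.4 and 99.4 in control and 89.6 and 97.4 with siDRR. At chr7:74529348-74531135, with siDRR ranks of 47.8 and 49.5, they stood at 96.6 and 98.9, and at 92.8 and 97.4. At chr3:109109813-109113603, with SMC3 ranks of 42.3 and 54.5, they stood at 97.9 and 97.4, and at 93.5 and 97.9. The best-ranked gained region had no ATAC peak in any of the 4 libraries, so high accessibility was not a trait of each gained site.

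To place the siDRR map, the 6 SMC3 lists were merged together into 43783 regions; totals shift slightly with the lists joined. The myotube lists took no part in choosing lost or gained regions. Of 6994 lost regions, 4502 (64.4%) were called in neither myotube list, 1929 (27.6%) in 1 and 563 (8.05%) in both. Over all 43783 regions 37.2% were called in neither. Of 40 gained regions, 8 were called in neither myotube list, 12 in 1 and 20 in both. Of 7814 regions in both myoblast and both siDRR lists, 7068 (90.5%) were called in both myotube lists and 17 in neither. Over all 43783 regions, 31.6% were called in both myotube lists and 31.2% in 1.

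The 563 lost regions that both myotube lists called were stronger in myoblasts than the rest of the lost. Their median myoblast rank was 45.9, against 37.2 for those in 1 myotube list and 28.1 for those in none. Without siDRR replicate 2 the makeup of the lost set turned, to 31.4% called in neither myotube list and 34.2% in both, and without siDRR replicate 1 it was 63.2% and 8.84%.

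Sites that told myoblasts and myotubes apart were then read in the siDRR lists, which took no part in choosing them. Myoblast-only regions, called in both myoblast lists and neither myotube list, numbered 5457. At least 1 siDRR list called 955 of them (17.5%, exact 95% interval 16.5% to 18.5%) and both siDRR lists called 17 (0.312%). Myotube-only regions, called the other way round, numbered 336, of which at least 1 siDRR list called 175 (52.1%, 46.6% to 57.5%) and both called 20 (5.95%). Of all 43783 regions 52.8% were called in at least 1 siDRR list and 18.2% in both. The myotube-only share was thus near that of all regions for at least 1 list and below it for both. The myoblast-only share was below that of all regions in either case. The intervals cover counting error only, and neighbouring regions are not independent.

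The gap between the 2 classes was present in each siDRR list. Replicate 1 called 1.34% of the myoblast-only and 8.93% of the myotube-only regions, and replicate 2 called 16.5% and 49.1%. The gap was present at like ranks too, as at 40 to 60 in the lists that define each class. There at least 1 siDRR list called 26.3% of 1230 myoblast-only and 65.6% of 61 myotube-only regions. It called 89.2% of 2123 regions of both myoblast and both myotube lists. At 20 to 40 the shares were 15.4%, 56.2% and 74.2%. Myotube and myoblast ranks come from lists of different length, so equal ranks are not equal strength.

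**Figure D3:**
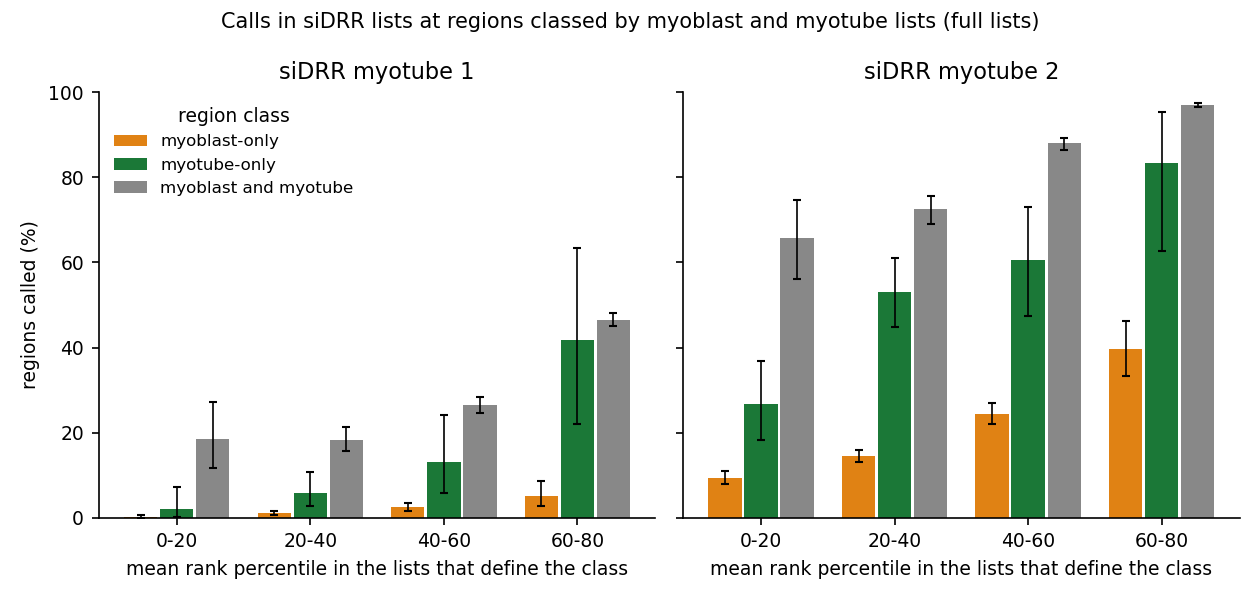
Bars give the percentage of regions of 3 classes called in siDRR replicate 1 (left) and 2 (right), by the mean rank percentile in the lists that define the class; for regions of both groups the myoblast rank is used. Error bars are exact 95% binomial intervals; in every rank bin shown, myotube-only bars lie above myoblast-only bars and below those of regions found in both.

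The order held with lists cut to 8384 peaks. At least 1 siDRR list called 52.7% of 679 myoblast-only and 76.8% of 616 myotube-only regions, against 76.4% of all 14407 regions. The myotube-only share again lay near that of all regions. In full and in equal lists alike the order rested on the second myotube library. With full lists and without myotube replicate 2, whose list is the longest of the 4 myotube and siDRR lists, 47.4% of 11769 myoblast-only and 25.03% of 847 myotube-only regions were called. Without myotube replicate 1 the shares were 19.1% and 28.7%. At equal length, a setting added after the data had been seen, they were 74.4% of 1631 and 49.4% of 1946 regions without myotube replicate 2, and 61.8% and 65.9% without replicate 1.

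A scale for these shares came from lists held out of the choice, a reading added after the data had been seen. With every list at 8384 peaks, regions were chosen that 1 myoblast list called and 1 myotube list did not, and the reverse. The other myoblast list, the other myotube list and both siDRR lists were then read at them. For the second list of each stage, 1997 regions were myoblast-specific: the held-out myoblast list called 54.7%, the held-out myotube list 31.3%, and siDRR replicates 1 and 2 called 33.6% and 33.9%. Of 1971 myotube-specific regions the held-out myoblast list called 35.4%, the held-out myotube list 54.7%, and siDRR replicates 46.9% and 53.7%.

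With the first list of each stage, 2748 regions were myoblast-specific. The held-out myoblast list called 59.3% and the held-out myotube list 43.2%, and the siDRR lists called 41.2% and 44.8%. Of 2742 myotube-specific regions these shares were 29.1%, 43.8%, 43.9% and 39.3%. Over the 4 choices of lists, both region types and both siDRR lists, the siDRR share was nearer to the held-out myotube list in 15 of 16 readings. The exception was siDRR replicate 1 at regions specific to myotube replicate 2 against myoblast replicate 1, with 47.0% against 43.8% in the held-out myoblast and 53.0% in the held-out myotube list. In several of the 16 the siDRR share lay beyond both held-out lists, so that side fixed which list was nearer. At regions of myoblast replicate 2 but not myotube replicate 1, siDRR replicate 1 called 39.0%, against 59.7% (held-out myoblast) and 49.8% (held-out myotube). Such readings do not place the siDRR list between the 2 stages. The 16 readings share libraries, so they are not independent and no test was made.

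**Figure D4:**
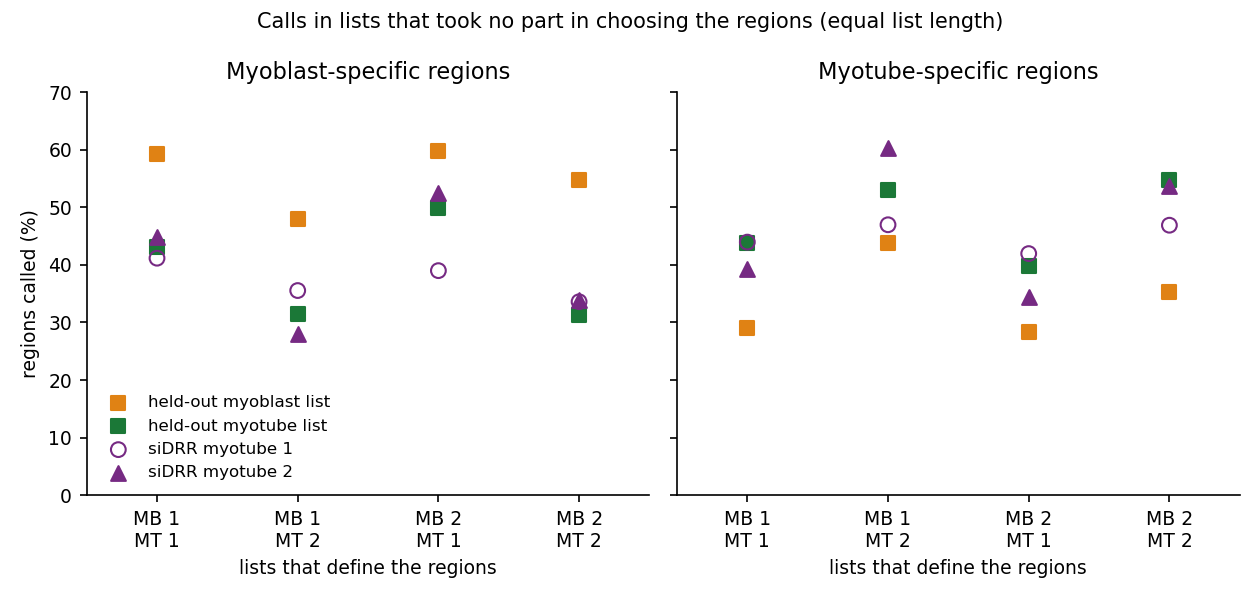
The y axis gives the percentage of regions called in 4 lists that did not choose the regions, with all lists at 8384 peaks; the x axis names the myoblast (MB) and myotube (MT) replicate that chose them. In both panels the siDRR points lie mostly around the green held-out myotube squares and away from the orange held-out myoblast squares.

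With full lists the reading depended on the region type. At myoblast-specific regions the siDRR share was nearer to the held-out myotube list in 8 of 8 readings, as at equal length, but at myotube-specific regions in 2 of 8, against 7 of 8 at equal length. In full lists siDRR replicate 1, the shortest list, called between 1.08% and 5.47% of the regions of either type. That was below both held-out lists in every reading, so the nearer one was whichever held-out list called fewer. Its full-list readings thus follow list length and cannot place its map.

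Whole lists compared by pair gave a less clear order. The Jaccard index is the share of the regions of either list that both call, and lists of 8384 peaks were used. SiDRR replicate 1 had an index of 0.489 with each myoblast list, and of 0.499 and 0.524 with myotube replicates 1 and 2. SiDRR replicate 2 had 0.572 and 0.625 with myoblast replicates 1 and 2, and 0.550 and 0.688 with myotube replicates 1 and 2. The pair of siDRR replicate 2 and myotube replicate 2 had the highest index of all 15 pairs, above the 2 myoblast lists with each other (0.631) and the 2 siDRR lists with each other (0.513).

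Averaged over both siDRR lists, the index was 0.530 and 0.557 for the myoblast lists and 0.524 and 0.606 for the myotube lists. The means were 0.544 and 0.565, a difference of 0.0216 (n = 2 lists each, p = 1 by exact permutation, two-sided, where 0.333 is the smallest p). The 2 stages overlap on this measure, and without myotube replicate 2 the difference was -0.0194. With full lists it was 0.0881 (p = 0.333, exact permutation test). Full lists differ in length, which the index takes up.

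Sites that both siDRR lists shared with myoblasts but not with myotubes were few. Of the 17 regions called in both myoblast and both siDRR lists and neither myotube list, the best-ranked was chr8:88049160-88051639, at 86.9 and 63.6 in myoblasts and 61.0 and 68.6 with siDRR. The nearest myotube peak was 62.1 kb away. The next, chr13:33652979-33654347, stood at 75.7 and 54.1 in myoblasts and at 52.3 and 45.5 with siDRR, 200 kb from any myotube peak. The third, chr7:130182387-130183627, stood at 74.6 and 71.6 in myoblasts but at 41.1 and 11.4 with siDRR. From the seventh on, mean ranks were 36.6 or lower. On chromosome 18 lay 3 of the 10 best-ranked, and 808 of the 25231 regions of both myoblast lists. A link to that chromosome was not tested.

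Of the 20 regions in both myotube and both siDRR lists and neither myoblast list, the best-ranked was the gained region on chromosome 5 described above. The second, chr6:31024807-31027869 (3063 bp), stood at 89.2 and 89.1 in myotubes and 24.7 and 63.1 with siDRR. The fourth, chr16:24230981-24233101, stood at 87.9 and 60.4 in myotubes and 61.4 and 41.7 with siDRR. Mean ranks of the 10 best ran from 48.0 to 68.3, against 32.1 to 70.03 for the 10 shared with myoblasts. Of the 10 best-ranked gained regions, 6 recurred in this set. With lists at equal length, 0 of the 10 best-ranked in either set kept their class, against 9 of the 10 lost regions. Without siDRR replicate 1, the 17 and 20 became 899 and 165; without replicate 2, they became 73 and 30. As shares of the sites that could have qualified, the 20 were 5.95% of the myotube-only and the 17 were 0.312% of the myoblast-only regions.

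**Figure D5:**
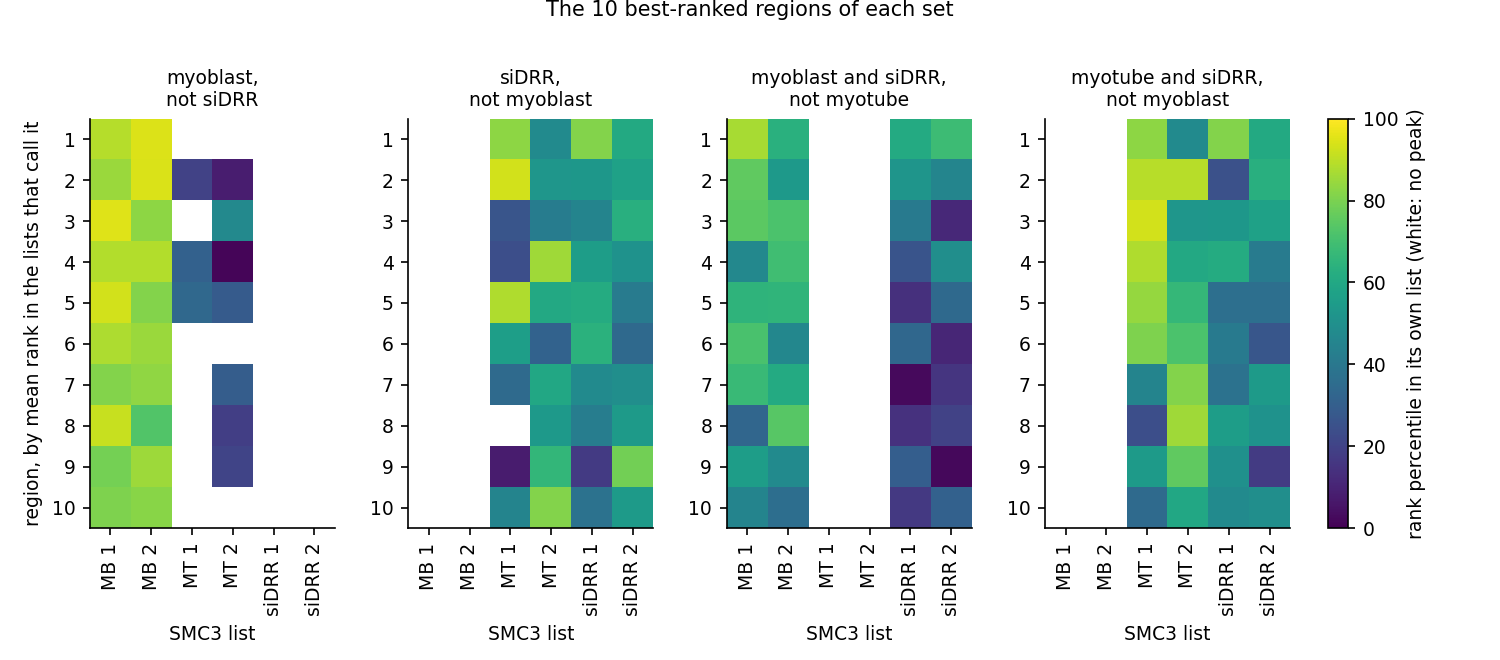
Each row is 1 of the 10 best-ranked regions of a set and each column an SMC3 list (MB, myoblast; MT, myotube); colour gives the rank percentile within that list, and white means no peak. Lost regions are bright in both myoblast columns and dark or white in the myotube columns, while 9 of the 10 gained regions have a peak in both myotube lists.

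Of the regions called in all 4 lists, the 5 best-ranked are named for reference, and their high ranks follow from that choice. As a set, these regions had median ranks of 83.3 and 84.4 in the myoblast lists and 52.7 and 78.8 in siDRR replicates 1 and 2. The best-ranked was chr8:95341576-95342923, at 99.8 in both myoblast lists and 99.99 and 100 in siDRR replicates 1 and 2. The second was chr13:98706957-98710323, at 99.99 and 99.97 in myoblasts and 99.7 and 99.8 with siDRR. Then came chr13:32993909-32996163, chr12:112663041-112665260 and chr10:74613571-74615014, with mean ranks of 99.7 each. All 5 were called in both myotube lists as well, at ranks of 90.6 or higher. An ATAC peak in both control libraries was present at 3 of the 5.

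Accessibility was read from the regions that both siDRR ATAC lists called; no myoblast ATAC sample was used here. Of lost regions 31.8% overlapped such a region, of all-4 regions 33.5% and of gained regions 47.6% (20 of 42, exact 95% interval 32.0% to 63.6%), against 42.2% of all 40855 regions. With control ATAC lists the shares were 26.7%, 26.2% and 61.9%, against 37.6%. Within myoblast ranks of 40 to 60 the siDRR shares were 28.0% of 1778 lost and 28.2% of 730 all-4 regions. Lost regions were the more often accessible at ranks of 20 to 40 (33.3% against 27.1%) and the less often at 60 to 80 (24.0% against 30.0%), so no one order held across ranks. At 40 to 60, regions of both myoblast lists with 1 siDRR call stood higher, at 39.1% of 3193.

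Accessibility also followed the replicate number, in each group. Of the best 8384 peaks, 31.9% in myoblast replicate 1 and 39.9% in replicate 2 overlapped an accessible region of siDRR myotubes. In siDRR myotubes the shares were 31.6% and 38.7%, and in myotubes 31.3% and 38.5%. Each second replicate was thus higher than each first one, whatever the stage. Regions called in myoblast replicate 2 and siDRR replicate 2 alone were accessible in 84.7% of 1858 cases, those in myoblast replicate 1 and siDRR replicate 2 alone in 45.0% of 575. Regions of myoblast replicate 2 alone were accessible in 59.7% of 5875 cases and those of myoblast replicate 1 alone in 26.8% of 4807. The part of this difference in the counts of lost and gained regions was not tested.

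Overlap of these sites with the mapped DRR RNA was compared between classes. ChIRP-seq pulls down chromatin with probes against an RNA, and 1146 regions were found with at least 1 replicate of each of 2 DRR probe pools. With 1146 regions beside 40855 SMC3 regions, the share over all SMC3 regions is bound to be small. The 2 pool 1 lists held 3776 and 68812 summits, so the ChIRP regions rest on lists of very unequal length. Of the lost regions 16 of 7013 overlapped one (0.228%, exact 95% interval 0.130% to 0.370%), and of the all-4 regions 13 of 7818 (0.166%, 0.0886% to 0.284%). Among all regions 0.176% did. The intervals of lost and all-4 regions overlap. None of the 42 gained regions did, which allows a share of up to 7.14% by 3 counts of the total and 8.41% by the exact 95% interval.

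Lost sites were spread over every chromosome. As a share of the regions of both myoblast lists, they ranged from 25.3% on chromosome 19 (195 of 770) to 33.6% on chromosome 13 (389 of 1159). Chromosome 14 (31.6%), chromosome X (30.9%), chromosome 5 and chromosome 12 (both 30.7%) followed. Median myoblast rank moved with these shares at the ends, at 62.8 on chromosome 19 and 56.0 on chromosome 13. Chromosome X had the lowest median rank (52.2) and the smallest share of regions called in all 4 lists, 21.7% against 31.0% over all chromosomes. The part of rank in these differences was not tested.

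Along the chromosome, most neighbours differed in class. After a lost region the next region of both myoblast lists was lost in 32.7% of cases, called in 1 siDRR list in 38.6% and in both in 28.7%. After an all-4 region these shares were 25.4%, 40.7% and 33.9%, and after any region 27.8%, 41.2% and 31.0%. The differences from the shares after any region were small and were not tested. The distance from a region to its nearest neighbour had a median of 18.7 kb for lost and 16.2 kb for all-4 regions. Lost regions stood alone in 3243 runs, in runs of 2 in 971, and in runs of 9 in 3, the longest seen.

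The 3 longest runs, picked out after their values were seen, lay at chr3:103882324-104146929 (265 kb), chr8:10605702-10978699 (373 kb) and chr17:44926099-45367573 (441 kb). Median myoblast ranks of their 9 regions were 29.0, 26.9 and 35.1. In myotubes, replicate 1 called 1, 0 and 1 of them and replicate 2 called 0, 1 and 2. On chromosome 8, 6 of the 9 overlapped an accessible region of siDRR myotubes, on chromosome 3 it was 2 and on chromosome 17 it was 3. That siDRR lists had no call at the lost regions of these runs is set by their choice. The myotube calls and the accessibility took no part in it. Of lost regions as a set, 64.4% were called in neither myotube list and 31.8% overlapped an accessible region of siDRR myotubes.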

How the data were processed

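Peak lists from SMC3 ChIP-seq (6 libraries), ATAC-seq (4) and ChIRP-seq (4) of C2C12 cells were used as deposited, 1 list per library, in mm9 coordinates per the submitters' processing notes. These notes name, with no role, the peak callers MACS 1.4.2 and MACS2, the aligners Bowtie2 2.2.4 and Bowtie 1.1.1, the trimmer cutadapt 1.12, and bcl2fastq 2.17.1 and CASAVA 1.8.2. No source used here gives the control or threshold of peak calling. Chromatin was sheared to 250 bp, per the labels' protocols. The authors' deposited score has no stated scale and served only to rank or filter peaks within a list. At most 0.0119% of intervals recurred exactly between any pair of SMC3 lists, so none was deposited again under another name.

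Starts were made 1-based. Accessible regions were those of both ATAC lists of a group, and each ChIRP summit was extended 250 bp to either side. Permutation tests over libraries were exact and two-sided, and intervals are exact binomial (scipy 1.17.1). Region calling was tested on simulated data. The members, the lists and the rule for named regions (the 10 best-ranked of each set, the 5 best-ranked constant and the 3 widest lost regions) were chosen with earlier results of these data known. Alternatives changed the list length, score filter, overlap, peak width and libraries. Genes, cell type markers, sequences and motifs at the regions were not analysed here, since the reference tables used are on another build.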

Additional observations from a re-analysis of the deposited data

How the results depend on the processing

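Depth is unknown for every list, so a call that is missing cannot be told from one too weak to pass. The cause of the changes below was not tested, beyond the fact that some settings leave fewer peaks or libraries. With lists at equal length, 603 regions were lost, 463 gained and 4286 called in all 4 lists (56.6% lost among lost and gained). Then 52.7% of myoblast-only and 76.8% of myotube-only regions had a siDRR call, and 53.2% and 14.8% of lost regions were in neither and in both myotube lists. The median myoblast rank and width of lost regions were then 82.2 and 1286 bp, and accessible shares of lost, gained and all-4 regions were 29.4%, 32.0% and 37.0%. With the better-scoring 50% of each list, 3333 regions were lost and 3735 called in all 4 lists (99.1% lost). A siDRR call was present at 20.2% of myoblast-only and 44.7% of myotube-only regions. Lost regions were in neither myotube list in 58.2% and in both in 10.1%, at a median rank of 65.6, and 26.6% of lost and 35.9% of all-4 regions were accessible. With peak centres widened by 250 bp, 206 regions were gained (97.2% lost), 58.8% of myotube-only regions had a siDRR call, and lost regions had a median width of 552 bp. In that setting 30.5% of all-4 regions were accessible and 0.110% of lost regions held a ChIRP region.

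Leaving out 1 library at a time gave 7228 to 17205 lost, 75 to 2254 gained and 7862 to 18004 fully shared regions, with 76.2% to 99.4% lost. Shares with a siDRR call ran from 1.34% to 47.4% (myoblast-only) and 8.93% to 60.3% (myotube-only), and at equal length from 32.5% to 74.4% and 49.4% to 84.1%. Lost regions were in neither myotube list in 31.4% to 88.2% and in both in 5.02% to 34.2%, with median ranks of 24.5 to 46.6 and widths of 924 to 1202 bp. Accessible shares ran from 29.7% to 44.5% (lost), 33.3% to 68.1% (gained) and 32.8% to 37.1% (all-4), and ChIRP shares from 0.167% to 0.227%, 0 to 0.133% and 0.162% to 0.206%. The difference in list length ran from -23670.5 to -8858.5 peaks. The likeness difference ran from -0.0194, without myotube replicate 2, to 0.0626.

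Replicate numbers are shared between groups with no label tying them to a day or batch. With the replicate block the list-length difference was -16264.5 (p = 0.5, exact permutation within pairs, the smallest p that 2 pairs can give). The likeness difference over same-numbered lists was 0.0365 (p = 0.667, exact permutation). Deviations of same-numbered libraries correlated at 0.0378 with full lists and 0.0778 at equal length. The 10 best-ranked lost and the 5 constant regions kept their class under an overlap of 100 bp and with peak centres. At equal length 9 of the 10 lost, 1 of the 10 gained, all 5 constant and 0 of the 3 widest lost regions did so, and with the better-scoring 50% of each list 10, 3, 5 and 2 did. The held-out reading gave 10 of 16 with full lists and 15 of 16 in the other settings run.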
